A study of Mus musculus with 4 samples.

Results

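In the livers of 4 aP2-SREBP-1c mice, 46 genes were measured at higher levels in mice 1 and 4 than in mice 2 and 3. They were chosen by their values. For each gene, the lower value of mice 1 and 4 was compared with the higher value of mice 2 and 3, and this difference, called the gap, had to reach at least 0.4 on the log2 scale at a mean of at least 6. Of 19938 genes measured, 10109 had a mean of at least 6. The gap was reached by 59 of these genes (0.584%). The rule left out 14 genes by name, mostly pancreatic genes together with Socs2, Cish, Igfbp2 and Serpina4-ps1. Of these, 13 reached the gap, so that 46 members remained. The gap of the members is therefore a description of how they were selected and carries no test. The opposite pattern, with mice 1 and 4 lower by at least 0.4, was found for 125 genes (1.24%).

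All 4 mice were male and carried, on the C57Bl6 background, a transgene for the transcriptionally active N-terminal part of human SREBP-1c with an HA tag, driven by the adipocyte promoter aP2. These mice develop lipodystrophy and massive hepatic steatosis. They received regular chow and were 24 weeks old according to the labels, while the study's methods state a range. From each animal, 150 ng of RNA of a snap-frozen liver biopsy was applied to its own Mouse Gene 1.0 ST array, and the mice are separate animals of 1 group. C57Bl6 and alb-SREBP-1c livers were not analysed here. The aP2 promoter directs the transgene to adipocytes, not to hepatocytes. Nothing in the labels sets mice 1 and 4 apart from mice 2 and 3, and no result below is a comparison of conditions.

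Growth hormone acts on hepatocytes through its receptor, the kinase JAK2 and the transcription factor STAT5, and among its known hepatic targets are Socs2, Cish and Onecut1. Hepatocytes also break down tryptophan along the kynurenine pathway, which yields either NAD or products that are burned for energy. Trypsins, elastases and pancreatic lipases are secreted by the acinar cells of the pancreas, an organ that lies next to the liver.

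The non-coding member Mir505 encodes the precursor of a pair of mature miRNAs, which are shown because the probe set names only the precursor gene. The mature sequences are those of RefSeq, assembly GRCm38.p6, from the minus strand at chrX:60394416-60394437 and chrX:60394451-60394473, and capitals mark the seed, bases 2 to 8.
mmu-miR-505-3p: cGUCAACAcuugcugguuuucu
mmu-miR-505-5p: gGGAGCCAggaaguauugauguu
The seeds of both arms differ from each other. The probe set is annotated to the gene, so that its values are not assigned to either arm.

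Promoters of the members were searched for 5 motifs on both strands, STAT5 being the factor through which growth hormone acts. Of the 46 members, 38 had a promoter in the RefSeq table of GRCm38.p6, each with 250 bases before and 50 bases after the transcription start. The STAT5 element TTCNNNGAA was held by 4 of the 38 members (10.5%), namely Arid5b, Ift27, Prss2 and Rangrf, compared with 8.30% of all 32851 promoters and 7.91% of the genes with a mean of at least 6. The E-box CACGTG was held by Onecut1 and Ntmt1, which is 5.26% of the 38 members and compares with 7.15% of all promoters and 12.0% of the genes with a mean of at least 6. No member held the cAMP response element TGACGTCA (1.79% of all promoters and 3.43% of the genes with a mean of at least 6), the FoxO element GTAAACA (3.65% and 3.27%) or the glucocorticoid response element (0.475% and 0.370%). None of the searched motifs overlapped another in a member. These counts are small and near the background shares, and nothing about the members is read from them. For the 3 members described most closely below that hold a match, the 250 bases before the start are given, with the match in capitals. Onecut1 lies on the plus strand at chr9:74861671-74861920 and holds the E-box, Arid5b on the minus strand at chr10:68278727-68278976 with the STAT5 element, and Prss2 on the plus strand at chr6:41521526-41521775 with the STAT5 element.
Onecut1: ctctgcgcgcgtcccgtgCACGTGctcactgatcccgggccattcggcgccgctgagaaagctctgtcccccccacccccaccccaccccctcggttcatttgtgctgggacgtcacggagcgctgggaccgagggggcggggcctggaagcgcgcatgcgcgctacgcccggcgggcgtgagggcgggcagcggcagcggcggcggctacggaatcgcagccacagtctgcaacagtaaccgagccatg
Arid5b: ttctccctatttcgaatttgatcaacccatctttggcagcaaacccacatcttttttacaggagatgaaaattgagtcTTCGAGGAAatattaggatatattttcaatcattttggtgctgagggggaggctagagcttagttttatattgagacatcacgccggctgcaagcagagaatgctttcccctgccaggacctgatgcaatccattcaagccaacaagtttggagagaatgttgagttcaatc
Prss2: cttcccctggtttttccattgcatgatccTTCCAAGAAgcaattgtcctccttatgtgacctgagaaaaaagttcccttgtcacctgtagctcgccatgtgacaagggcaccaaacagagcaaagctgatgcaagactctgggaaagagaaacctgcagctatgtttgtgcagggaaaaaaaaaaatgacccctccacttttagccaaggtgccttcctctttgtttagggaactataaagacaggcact
Relative to the start, the match began at position -232 in Onecut1, -172 in Arid5b and -221 in Prss2. A match describes these letters and does not show that a factor binds there.

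The arrays themselves differed, and these differences bear on all values below. Across genes with a mean of at least 6, the correlation between arrays ranged from 0.972 (mice 1 and 3) to 0.993 (mice 2 and 3), and no pair of arrays shared more than 25 identical values. Mouse 4 correlated with mice 1, 2 and 3 at 0.982, 0.985 and 0.987. Over all these genes mouse 4 was thus not closest to mouse 1, and the pairing of mice 1 and 4 comes from the rule. The values of mouse 1 were compressed, with an SD across these genes of 1.34 compared with 1.40, 1.42 and 1.40 in mice 2 to 4. The background limit, set by 1207 probe sets of olfactory and vomeronasal receptors, was 5.52, 5.36, 5.35 and 5.33 in mice 1 to 4. All 46 members exceeded it on all 4 arrays, but 17 of them had a mean below 7 and were thus close to the limit. Hepatocyte markers differed little. Albumin (Alb) was at 14.29, 14.33, 14.37 and 14.31 in mice 1 to 4, and the median gap of the 12 hepatocyte markers was -0.09 (0.0077 after quantile normalization), with no member among them. With 4 arrays the precision of all values is limited. Each value belongs to its own probe set, and levels of different genes are not ranked against each other.

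**Figure D1:**
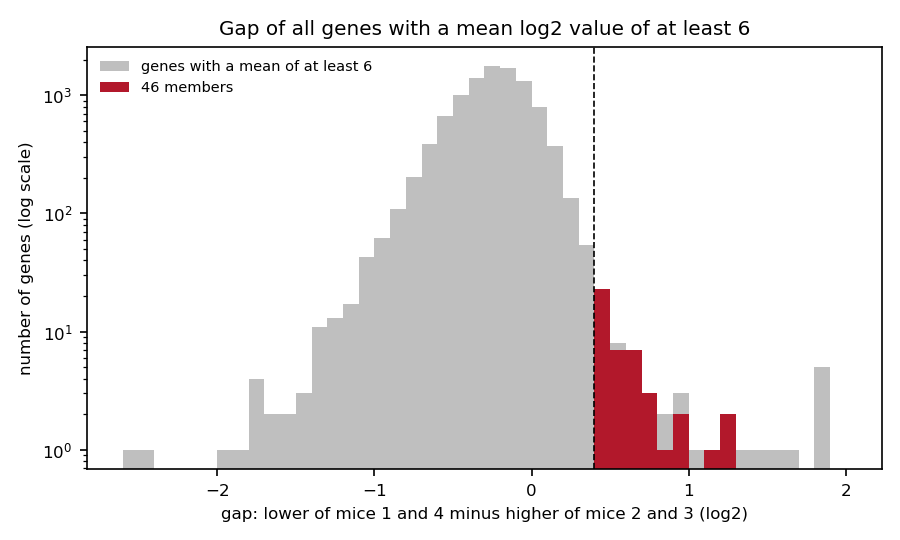
Number of genes (log scale) by their gap on the log2 scale, the lower of mice 1 and 4 minus the higher of mice 2 and 3. Grey bars stand for all 10109 genes with a mean of at least 6, red bars for the 46 members, and the dashed line for the threshold of 0.4; the median gap of all genes was -0.24.

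Among the members, the gap ranged from 0.40 to 1.24 with a median of 0.50, which corresponds to a 1.41-fold difference. In comparison, the median gap of all 10109 genes was -0.24. A gap above 1, and thus more than 2-fold, was seen for Cela2a, Onecut1 and Try5. The total range between the highest and the lowest mouse exceeded 2-fold for 12 members. Just inside the threshold were Cisd2 and Cebpa (0.42 each), Tedc2 and Kdm7a (0.41 each) and Ntmt1 (0.40). Just outside were Pisd-ps2 (0.399), Slco2a1 (0.394), Gjb2 (0.388), Jph1 (0.384) and Bdh2 (0.383). There was therefore no break in the gaps at the threshold, and the lower end of the list is set by it. A further 112 genes reached the gap of 0.4 at a mean below 6 and were not included.

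**Figure D2:**
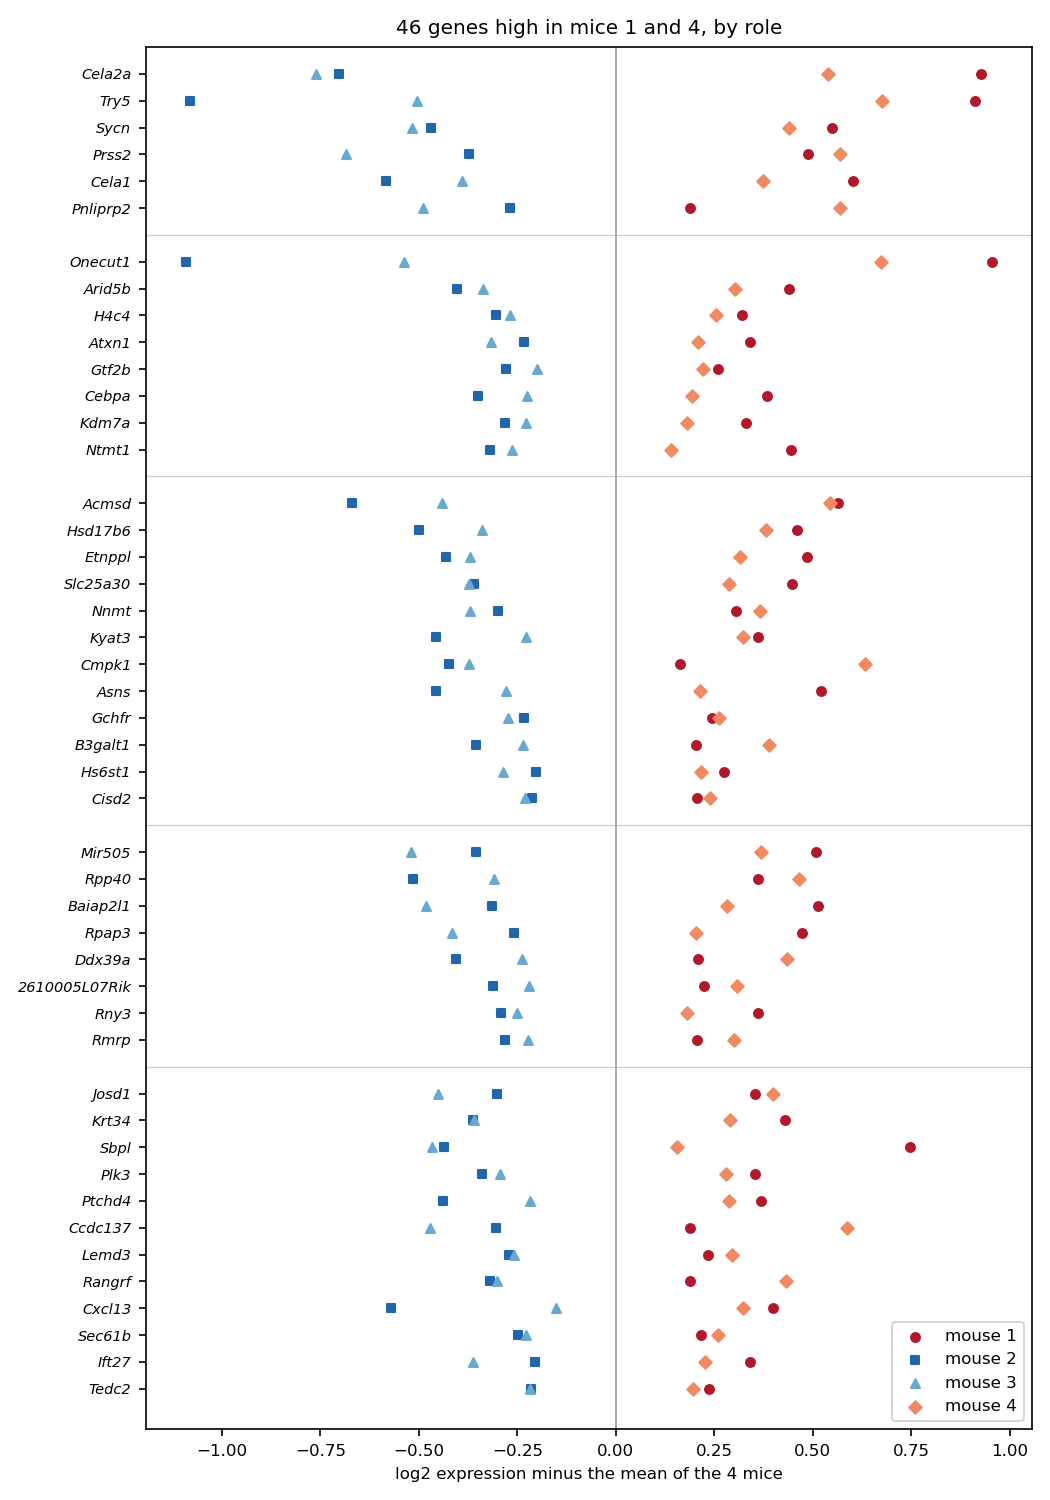
Log2 expression of the 46 members per mouse after subtraction of the gene's own mean over all animals (horizontal axis). Genes are grouped from top to bottom by role (6 pancreatic, 8 transcription and chromatin, 12 metabolism, 8 non-coding and RNA handling, 12 other); mice 1 and 4 lie to the right of mice 2 and 3 for every gene, as the rule demands, with the widest separation for Cela2a, Try5 and Onecut1.

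The members were arranged in 5 groups by their known role. The first group comprised 6 genes of the exocrine pancreas. Cela2a (probe set 10518050), which encodes a pancreatic elastase, was measured on the log2 scale at 8.26, 6.63, 6.58 and 7.87 in mice 1 to 4. Try5 (probe set 10544333), a trypsin gene, was at 7.99, 5.99, 6.57 and 7.75. In both genes mice 1 and 4 were high and mice 2 and 3 low, with mouse 2 below mouse 3 in Try5. The trypsinogen gene Prss2 was measured at 6.95, 6.09, 5.78 and 7.03. Sycn, which encodes a zymogen granule protein, was at 7.51, 6.49, 6.44 and 7.40. Cela1, a further elastase gene, was at 8.17, 6.99, 7.18 and 7.94. The separation was smallest for the lipase-related gene Pnliprp2, at 6.31, 5.85, 5.63 and 6.69. Here mouse 4 was the highest, and the values of mice 2 and 3 were less than 0.5 above the background limit. Trypsin genes are close in sequence, and whether their probe sets read more than 1 transcript was not tested. In RefSeq GRCm38.p6, Try5 and the left-out trypsin gene 2210010C04Rik lie on chromosome 6 with only 1 protein-coding gene between them.

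These 6 genes belong to a larger set. Of 48 listed acinar genes, 40 were measured, and 19 had a mean of at least 6. Of these 19 genes, 6 are members and 9 are genes that the rule leaves out. The median gap of the 19 genes was 1.18 compared with -0.24 for all genes, a description with no test, as the rule used these values. In 16 of the 19 genes both mice 1 and 4 exceeded mice 2 and 3, compared with 1414 of 10109 genes. The 3 others were Nr5a2, which is also a transcription factor of hepatocytes, Ctrc and Tff2. The filter on the mean favours genes that are high in mice 1 and 4. Pnliprp2, for example, was below 6 in mice 2 and 3, at 5.85 and 5.63. Listed acinar genes with a mean below 6 were not counted. Their gaps went both ways, such as -0.63 for Cela3a and 0.36 for Dmbt1. After subtraction of the mean of each gene, the median of the 19 genes was 0.91, -0.94, -0.65 and 0.67 in mice 1 to 4. Among the left-out genes, Ctrb1 was at 9.49, 6.58, 7.14 and 9.01 and Cpa1 at 9.02, 6.31, 6.69 and 8.49. The acinar transcription factors Ptf1a and Bhlha15 were near or below background, with means of 4.56 and 5.04. As the liver was measured as bulk tissue, fewer cells of a type and less RNA per cell cannot be told apart. Most acinar transcripts with a mean of at least 6 thus moved with the pattern that selected the 40 other members. Their part in the values of those genes was not tested.

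The transcription and chromatin group comprised 8 members and was led by Onecut1 (probe set 10587082). Onecut1, also known as HNF6, is a transcription factor of hepatocytes, bile ducts and pancreas. Its values were 9.20, 7.16, 7.71 and 8.92. Mice 1 and 4 were close to each other and high, mouse 3 was low and mouse 2 the lowest, a 4.12-fold range between mice 1 and 2. The mean was 8.25 ± 0.97 (SD, n = 4). Cebpa, which encodes a liver-enriched factor of metabolic gene control, was measured at 9.91, 9.18, 9.31 and 9.72. Arid5b, which encodes a DNA-binding partner of a histone demethylase, was at 9.06, 8.22, 8.28 and 8.92. In Cebpa and Arid5b the groups of mice were narrower than in Onecut1, with gaps of 0.42 and 0.64. The general transcription factor gene Gtf2b was at 8.77, 8.24, 8.32 and 8.74, and the histone H4 gene H4c4 at 10.36, 9.74, 9.77 and 10.29. Histone genes occur in many near-identical copies, so that the value of H4c4 may include other copies. The remaining genes were Ntmt1, a protein N-terminal methyltransferase (7.35, 6.58, 6.64 and 7.04), Atxn1, a transcriptional corepressor, and Kdm7a, a histone demethylase. Atxn1 was at 7.56, 6.98, 6.90 and 7.42, but a second probe set of this gene was at 6.92, 6.92, 7.05 and 7.17 without a gap. Likewise, Kdm7a was at 7.55, 6.94, 6.99 and 7.40, whereas its second probe set was at 6.53, 6.56, 6.75 and 6.81. For these 2 genes the pattern thus rested on 1 of 2 probe sets.

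Of 15 liver-enriched transcription factors with a mean of at least 6, Onecut1 and Cebpa were members and none was among the genes with the opposite pattern. Over all genes, 0.584% reached the gap and 1.24% showed the opposite pattern. This list was written after the values were seen. The median gap of the list was -0.12 compared with -0.24 for all genes, and it turned to 0.02 after quantile normalization and 0.01 with median-centred arrays, where that of all genes was -0.16 and -0.15. The paralogue Onecut2 was measured at 8.50, 8.59, 8.63 and 8.77, and Hnf4a at 10.19, 10.60, 10.62 and 10.48. Cebpb was at 7.57, 7.65, 7.53 and 7.46. In Onecut2 and Cebpb the values of mice 1 and 4 overlapped with those of mice 2 and 3, whereas Hnf4a was lower in mice 1 and 4 by 0.11.

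Onecut1 was also the only member among 18 listed genes of growth hormone and STAT5 signaling. The left-out genes Socs2, Cish and Igfbp2, the first at 8.65, 7.44, 7.67 and 8.68, completed the genes of this list that reached the gap. Bcl6, a repressor that growth hormone is known to lower, showed the opposite pattern with 5.81, 7.42, 7.53 and 6.74. The growth hormone receptor gene Ghr was measured at 10.97, 11.39, 11.42 and 11.25, and Stat5b at 7.81, 8.18, 8.46 and 8.02, both lower in mice 1 and 4 but by less than 0.4. Igf1, the main circulating target of the hormone, was at 11.32, 11.49, 11.51 and 11.43. Lifr, a cytokine receptor gene, was at 9.43, 8.95, 9.06 and 9.61 and just missed the threshold with 0.37. The median gap of the 18 genes was 0.03, and -0.02 when the probe sets of each gene were averaged. The values of the list were thus mixed, with 4 genes high, 1 low and 13 between the thresholds. Over all genes, 0.584% were high and 1.24% low by these thresholds.

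**Figure D3:**
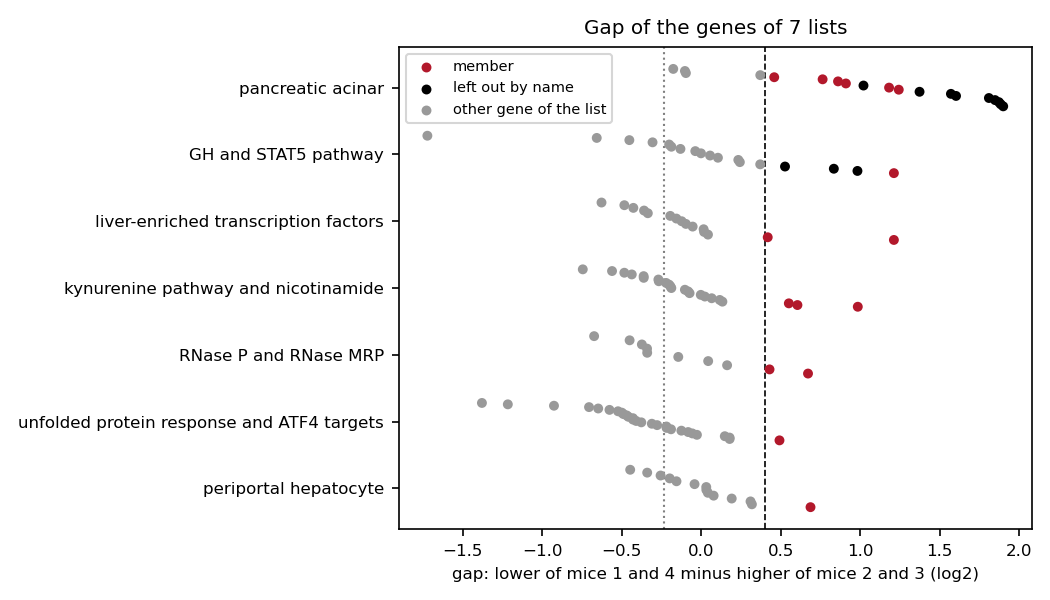
Gap on the log2 scale of each gene with a mean of at least 6 in 7 gene lists. Red points stand for members, black points for genes left out by name, grey points for the others; the dashed line marks 0.4 and the dotted line the median of all genes, -0.24, and the vertical spread within a list only separates the points. Most acinar genes lie to the right of 0.4, while in the other lists most genes lie to the left of it.

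Metabolic genes formed a group of 12 members. Acmsd, which encodes the enzyme that diverts tryptophan breakdown away from NAD synthesis, was measured at 7.79, 6.56, 6.79 and 7.77. Mice 1 and 4 differed by 0.02, and mouse 2 was the lowest. Kyat3, a kynurenine aminotransferase, was at 9.72, 8.90, 9.13 and 9.68, and the nicotinamide methyltransferase Nnmt at 8.41, 7.81, 7.74 and 8.47. All 3 enzymes act on tryptophan or nicotinamide metabolites. Of 23 genes of this pathway with a mean of at least 6, these 3 were members, and over all genes 0.584% reached the gap. The list was written after the values were seen. Its median gap was -0.19 (-0.02 after quantile normalization and -0.07 with median-centred arrays). Tdo2, the entry enzyme of the pathway, was at 12.29, 12.26, 12.36 and 12.42, Kmo at 10.66, 10.85, 10.82 and 10.87, and Qprt, which forms the first mononucleotide, at 9.15, 9.08, 9.07 and 9.14. In these 3 genes the mice differed by no more than 0.21. Kyat3 and Gtf2b are direct neighbours on chromosome 3 in GRCm38.p6, with no other protein-coding gene between them.

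Among the other metabolic members, Hsd17b6, an oxidoreductase of steroids and retinol, was measured at 9.09, 8.13, 8.29 and 9.01. Etnppl, which breaks down phosphoethanolamine, was at 10.67, 9.75, 9.81 and 10.50, and the mitochondrial carrier gene Slc25a30 at 8.34, 7.53, 7.52 and 8.18. These 3 genes had gaps of 0.65 to 0.72, with mouse 1 the highest. Etnppl is a periportal gene, and it was the single member among 14 periportal genes with a mean of at least 6, whose median gap was 0.03 (0.18 after quantile normalization and 0.14 with median-centred arrays). None of 22 pericentral genes was a member, and over all genes only 0.584% reached the gap. The opposite pattern was shown by 4 of them, compared with 1.24% of all genes. Both mice 1 and 4 were below mice 2 and 3 in 19 of the 22 genes, compared with 3248 of 10109. The median gap was -0.52 compared with -0.24 for all genes, and a negative gap is not the size of a decrease. Asns, which makes asparagine and is a target of ATF4, was at 7.40, 6.42, 6.60 and 7.09. Of 28 genes of the unfolded protein response and ATF4, Asns was the only member, whereas Dnajb9, Creld2 and Sdf2l1 were lower in mice 1 and 4 by at least 0.4. By any amount, 14 of the 28 were lower in both mice and 4 were higher. Over all 10109 genes, 3248 were lower and 1414 higher in this way. Cmpk1, a pyrimidine nucleotide kinase, was at 8.97, 8.38, 8.43 and 9.44, and B3galt1, a galactosyltransferase, at 8.15, 7.60, 7.71 and 8.34. In both, mouse 4 was clearly the highest. The last 3 genes had gaps of 0.42 to 0.48. Gchfr, a regulator of tetrahydrobiopterin synthesis, was at 8.74, 8.27, 8.22 and 8.76. Hs6st1, a heparan sulfate sulfotransferase, was at 8.52 and 8.44 in mice 2 and 3 and at 8.94 in mouse 4, with mouse 1 slightly above mouse 4. The iron-sulfur protein gene Cisd2 was at 7.49, 7.07, 7.06 and 7.53.

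A group of 8 members comprised non-coding RNAs and genes of RNA handling. Mir505, with the mature sequences given above, was measured at 8.22, 7.35, 7.19 and 8.08. The Y RNA gene Rny3 was at 12.45, 11.79, 11.84 and 12.27, and Rmrp, the RNA of RNase MRP, at 11.83, 11.34, 11.40 and 11.92. Rpp40, a protein subunit of RNase P, was at 6.65, 5.77, 5.98 and 6.75. The listed transcripts of RNase P and RNase MRP did not share 1 pattern. Rmrp and Rpp40 were members of 10 genes of RNase P and RNase MRP, a list written after the values were seen. Rpp40 was below 6 in mice 2 and 3 and passed the filter on the mean only through mice 1 and 4. Over all genes, 0.584% reached the gap. The RNA of RNase P, Rpph1, was at 12.63, 12.44, 12.39 and 12.60. The subunit gene Pop4, at 7.54, 8.08, 8.21 and 7.88, was lower in mice 1 and 4. The helicase gene Ddx39a was at 6.46, 5.84, 6.01 and 6.68, and Rpap3, which encodes a chaperone partner of RNA polymerases, at 6.52, 5.79, 5.63 and 6.25. Rpap3, like Rpp40, was below 6 in mice 2 and 3. The transcribed pseudogene 2610005L07Rik was at 7.79, 7.26, 7.35 and 7.87. Of all members, 42 (91.3%) were protein coding in RefSeq, compared with 96.7% of all genes with a mean of at least 6. This count goes by gene symbol and includes Baiap2l1, whose chosen probe set lists no transcript of that gene.

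The value listed under Baiap2l1 cannot be assigned to this gene. The probe set that the rule chose (10445185) was at 13.25, 12.42, 12.25 and 13.01, but its RefSeq accessions are those of ribosomal RNA and none is a transcript of Baiap2l1. A second probe set of this kind was at 10.88, 10.48, 10.47 and 10.91. A probe set annotated to Cdk8 and the 28S rRNA gene Rn28s1, which shares such an accession, was at 13.84, 13.28, 13.15 and 13.63. All 3 probe sets that share these accessions were thus higher in mice 1 and 4, with gaps of 0.59, 0.395 and 0.357. Probe sets of other ribosomal RNA accessions were not examined. The 1 gene of RefSeq type rRNA with a mean of at least 6 was not a member. The probe set that does list the Baiap2l1 transcript was at 7.56, 8.35, 8.48 and 8.26, with mouse 1 the lowest. Baiap2l1 is therefore counted as a member by the rule only, and 45 members remained without it. The signal of these probe sets moved with the pattern, and its part in the values of other genes was not tested.

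The remaining 12 members have no common role. Josd1, a deubiquitinase, was measured at 7.21, 6.56, 6.41 and 7.26, and the hair keratin gene Krt34 at 6.80, 6.01, 6.01 and 6.66. Sbpl was at 7.17, 5.99, 5.96 and 6.58, with mouse 1 above mouse 4 by 0.59, the widest distance between these mice among all members. The stress-responsive kinase gene Plk3 was at 7.89, 7.20, 7.25 and 7.82. Cxcl13, a chemokine for B cells, was at 6.91, 5.94, 6.36 and 6.84. In Plk3 and Cxcl13 mice 1 and 4 were close to each other, and in Cxcl13 mouse 3 stood above mouse 2. Sec61b, a subunit of the translocon of the endoplasmic reticulum, was at 9.10, 8.64, 8.66 and 9.15, but its other probe sets had gaps of 0.22 and -0.05. Rangrf, a cofactor of the GTPase Ran, was at 6.57, 6.06, 6.08 and 6.82, and a second probe set repeated the pattern with 6.66, 6.00, 5.92 and 6.73. The remaining probe set of Rangrf was below background in all mice. Ptchd4 was at 6.43, 5.62, 5.84 and 6.35, whereas its second probe set was below background. The other genes of this group, Ccdc137, Lemd3 of the nuclear envelope, Ift27 of the cilium and Tedc2 of the centriole, had gaps of 0.41 to 0.49. Of the 12 genes, 9 had a mean below 7, so that this group lay closest to the background. Sbpl, Ptchd4 and Ccdc137 were below 6 in mice 2 and 3 and passed the filter on the mean only through mice 1 and 4.

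The rule demands high values in both mice 1 and 4 and thereby leaves out genes that are low in mouse 1 or in mouse 4. The order within the pairs is thus also shaped by the selection and is given as a description only. Mouse 1 exceeded mouse 4 in 30 of 46 members (65.2%), with a median difference of 0.07. Over all genes with a mean of at least 6, without that selection, the share was 30.5%. All 8 members of the transcription and chromatin group were higher in mouse 1, by 0.04 to 0.30. In contrast, the largest differences in favour of mouse 4 were those of Cmpk1 (-0.47), Ccdc137 (-0.40) and Pnliprp2 (-0.38). Mouse 2 exceeded mouse 3 in 18 of 46 members (39.1%), compared with 39.3% of all genes with a mean of at least 6. The widest distances here were in Try5 (-0.58), Onecut1 (-0.55) and Cxcl13 (-0.42), in each case with mouse 2 the lowest.

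**Figure D4:**
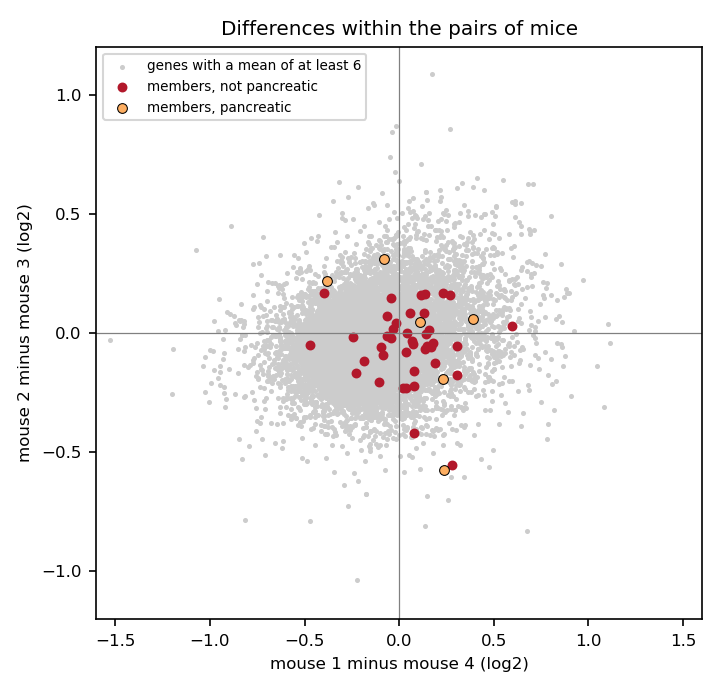
Difference between mouse 1 and mouse 4 (horizontal axis, log2) against that between mouse 2 and mouse 3 (vertical axis, log2) for each gene. Grey points stand for the 10109 genes with a mean of at least 6, red points for 40 members and orange points for the 6 pancreatic members; 30 of 46 members lie to the right of 0. Members had to be high in both mice 1 and 4, so their position relative to the grey points is shaped by the rule.

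Since the values of mouse 1 were compressed, the gap was also computed after quantile normalization of the 4 arrays. The median gap of the 46 genes was then 0.56 compared with 0.50 in the deposited values. It fell below 0.4 for Hs6st1 and Tedc2 only, both at 0.39. Mouse 1 exceeded mouse 4 in 37 of the 46 genes (80.4%), again within genes selected for high values in both mice 1 and 4. Over all genes with a mean of at least 6 the share was 43.8%. The same rule then selected 64 genes, of which 44 were members and 20 were new, among them Lifr (0.59), Dusp1 (0.62), Gjb2 (0.51), Egfr (0.42) and the insulin-sensitive gene Igfbp1 (0.47).

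**Figure D5:**
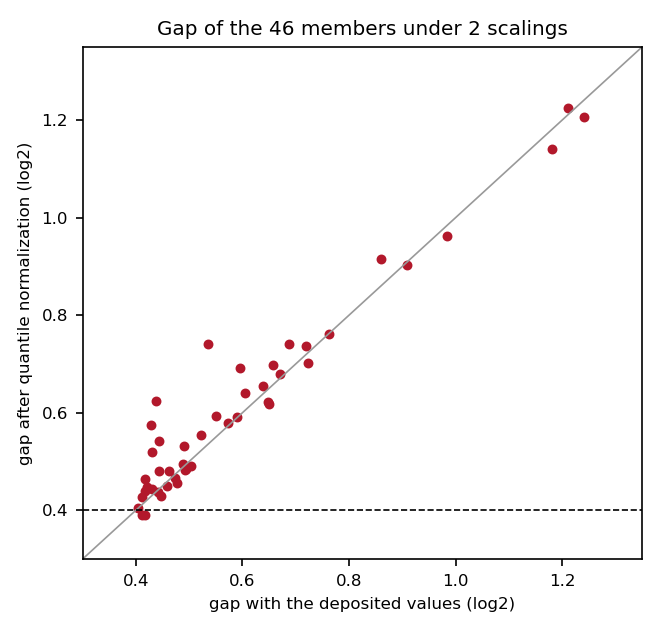
Gap of each of the 46 members with the deposited values (horizontal axis, log2) and after quantile normalization of the 4 arrays (vertical axis, log2). The solid line marks equal values and the dashed line 0.4; Hs6st1 and Tedc2 lie just below 0.4 after normalization.

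Genes with the opposite pattern were more frequent than the members (125, or 1.24% of all genes with a mean of at least 6, compared with 46 and the 13 left-out genes). They included 5 of 24 acute phase genes, such as Saa2 with 6.65, 8.85, 9.10 and 7.85, and 4 of 5 genes of MHC class II, such as H2-Aa with 7.71, 8.90, 8.97 and 8.17. No member belonged to these lists. The lists of stellate cells (median gap -0.51, 12 genes) and macrophages (median gap -0.25, 12 genes) held no member either. They held 1 and 0 genes with the opposite pattern, respectively. The median gap of all genes was -0.24, and 0.584% of them reached the gap. Lists of this size would thus rarely hold a member, and nothing is read from the absence of members. Of 38 lists, members were found in 7, which together hold 15 of the 46 members. The 7 include the 3 lists written after the values were seen, with 3, 2 and 2 members. The share of all genes that the lists hold was not counted, and nothing is read from these counts. The other 31 members belonged to none of the lists.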

How the data were processed

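Liver RNA of 4 aP2-SREBP-1c mice was measured on Mouse Gene 1.0 ST arrays. The deposited values are log2 expression values that the authors computed by RMA, which corrects the background, applies quantile normalization and combines probes by median polish. The submitters' processing notes name the Affymetrix Expression Console and RMA, and the labels the Transcriptome Analysis Console. The versions of the Expression Console and of RMA, the genome build and the set of arrays normalized together are not given in the sources used here.

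Each value column was assigned to its mouse through the labels, with 0 columns left over. Of 35556 probe sets, 21789 had 1 gene symbol in the platform annotation, 1621 had several and 12146 were not named here. Only those with 1 symbol were used, and per gene the one with the highest mean. All 46 members matched RefSeq GRCm38.p6 by gene identifier. The background limit of an array was the 95th percentile of the receptor probe sets. As the mice form 1 group and the rule uses their values, no test was made, and gaps and list medians are descriptions.

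The members and the 35 gene lists were chosen with earlier results of these data known. The role groups and 3 further lists (kynurenine and nicotinamide, RNase P and RNase MRP, liver-enriched transcription factors) were written after the values were seen. Named were the 20 members with the largest gap, members in the lists, genes next to the threshold, members with other probe sets, and examples for roles and markers. Genes outside this rule, such as Saa2, H2-Aa, Ghr, Bcl6 and those gained by normalization, were named after their values were seen. Steps were tested on simulated data. Python 3.11.15 with numpy 2.4.6, pandas 2.3.3 and matplotlib 3.10.9 was used. Alternatives comprised other scalings, other thresholds of mean and gap, the mean of all probe sets and leaving out each mouse.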

Additional observations from a re-analysis of the deposited data

How the results depend on the processing

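No gap of a member changed sign under quantile normalization, median-centred arrays or the mean of all probe sets. The number of members depended on the settings. It was 46 as reported, 64 after quantile normalization, 70 with median-centred arrays and 40 with the mean of all probe sets, where Atxn1, Baiap2l1, Kdm7a, Ptchd4, Rangrf and Sec61b were lost. These were the only members with a further probe set of 1 symbol, so every member that this setting could change was lost. The gaps of the other 40 could not change under it. The number of members was 80 with a lowest mean of 5, 29 with 7 and 158 with no filter on low values, 100 with a smallest gap of 0.3 and 23 with 0.5. Without each mouse in turn it ranged from 94 to 233 (without mouse 2 and mouse 4, respectively; 114 without mouse 1 and 129 without mouse 3), since a gap over fewer mice cannot shrink. Mouse 1 was above mouse 4 in 30 of 46 members as reported, in 47 of 64 after quantile normalization, 48 of 70 with median-centred arrays, 51 of 80 with a lowest mean of 5, 103 of 158 with no filter, 54 of 100 with a gap of 0.3 and 18 of 23 with 0.5. Removal of the acinar list, chosen after seeing the data, left 40 members, 26 of them with mouse 1 above mouse 4. With the mean of all probe sets the gap of Ptchd4 was 0.10, and without mouse 4 that of Sbpl was 1.18. Of 37 lists with a median, 10 moved by more than the spread between mice after quantile normalization, among them the periportal, hepatocyte and kynurenine lists, and 3 with median-centred arrays. No paired analysis was possible because all animals belong to 1 group. The causes of these changes were not tested, and genes with a mean below 7 lie close to the background limit.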
